A study of Schizosaccharomyces pombe with 2 samples.

Results

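Cytokinesis, the division of 1 cell into daughter cells, was followed through the messenger RNA of 38 genes of the fission yeast Schizosaccharomyces pombe. The genes encode septins, parts of the contractile actomyosin ring, and the septation initiation network, and they were taken by gene symbol from a fixed list of these components. All 38 were found among the 2896 genes named on the array, each with 1 probe set and a signal above 0 in both arrays. Strain ST3479, called SD5, has its subtelomeres deleted, and strain JP1225 is the wild-type. Both strains have mating type h- and grew exponentially at 32 °C in the rich medium YES. The extent of the deletions in SD5 is not given in the sources for these data. With 1 array for each strain there was no replicate and no test, and each ratio describes these arrays only.

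Fission yeast cells divide by medial fission. Kinases in membrane nodes and anillin-like proteins mark the middle of the cell, a formin and myosins build an actin ring there, and septins gather beside it as the septum grows. The septation initiation network is a GTPase-driven kinase cascade at the spindle pole body that starts ring constriction and septum synthesis once the chromosomes have separated. Many of these genes bear the names of cell division cycle mutants.

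Ratios are given as log2 of SD5 over wild-type. They were centred on the median of the probe sets above background in both arrays, which lay at -0.20 before centring. Background, taken from 79 probe sets without an S. pombe target, was 26.6 in SD5 and 17.7 in the wild-type. The median S. pombe probe set had a signal of 998 in SD5 and 1168 in the wild-type. Signals of different genes come from different probes and give no order of abundance. The robust SD quoted beside a ratio is that of the 200 probe sets with the nearest mean signal in the same arrays, a spread between probe sets and not a replicate error. Earlier results of these same data had shown 7 genes near chromosome ends as low in SD5. Their log2 bounds ran from -6.41 for nhe1 to -1.32 for tlh2. The value of tlh2 is a mean over probe sets that ran from -1.81 to -0.40. Having been picked from these arrays, the 7 genes are no independent check of the strain label. The 7 M-cell genes listed for the labelled h- type were above background in both arrays, as were the 4 P-cell genes of the opposite type, so these signals did not separate the types. Of all S. pombe probe sets, 97.0% were above background in SD5 and 98.7% in the wild-type.

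None of the 37 cytokinesis genes with a ratio was 2-fold lower or higher in SD5. Among the 2865 named genes with a ratio, 0.244% were at least 2-fold lower and 0.0349% at least 2-fold higher. The ratios of the 37 genes ran from -0.38 for mob1, the activating subunit of the Sid2 kinase, to 0.33 for sid4, a scaffold of the septation initiation network. Their median was -0.01, against 0.00 over all named genes, with 15 above 0 and 22 below it. Above 0 were 40.5% of these genes and 50.4% of all named genes. At a smaller distance of 0.32 on the log2 scale, 1 of the 37 was lower (mob1) and 1 was higher (sid4), or 2.70% each way, against 1.68% of all named genes in each direction. In cultures measured as a whole, a different share of dividing cells and a different amount of RNA per cell cannot be told apart.

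**Figure D1:**
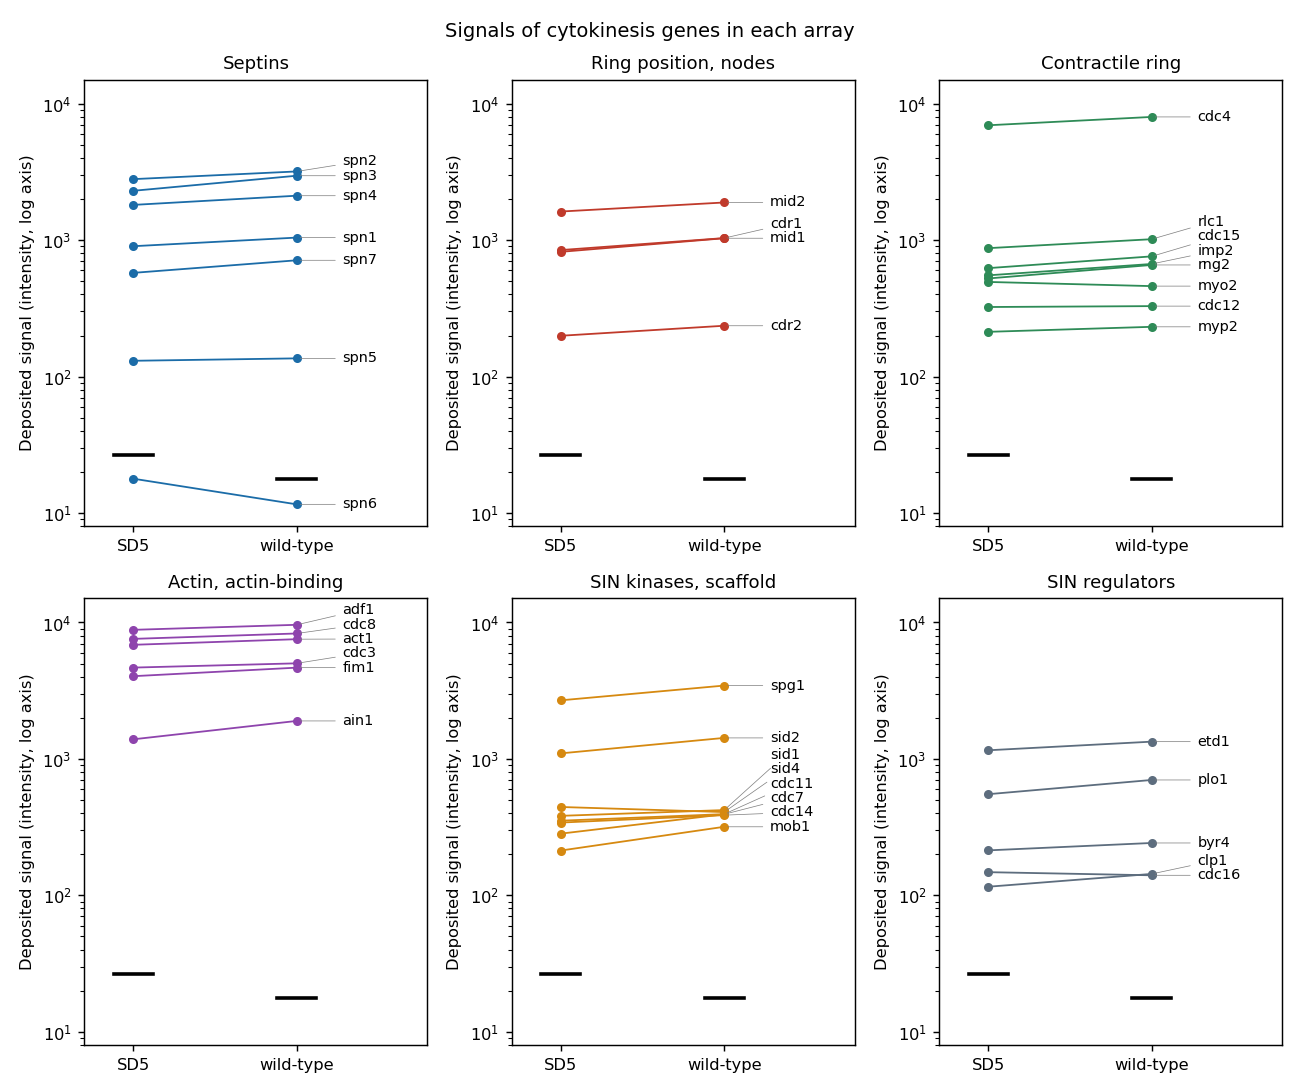
Deposited signal (intensity, log axis) of each of the 38 genes in the SD5 array and the wild-type array, in a panel for each role, with the background of each array as a black bar and SIN standing for septation initiation network. Lines are nearly parallel because most genes shared the overall shift, only spn6 lies under the bars, and the lines of myo2, sid4, cdc16 and spn6 slope the other way with a higher signal in SD5.

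Septins are GTP-binding proteins that assemble into filaments and rings. Those of vegetative cells, encoded by spn1 to spn4, had ratios close to 0 except for spn3. The gene spn3 (SPOM_SPBC16A3.01) had a signal of 2301 in SD5 and 2968 in the wild-type, a log2 ratio of -0.16 with a robust SD of 0.077 at that brightness. It was thus the lowest septin, 2.23 robust SDs below the median of genes of like signal. Its filament partners lay nearer 0. The signal of spn4 was 1813 in SD5 and 2118 in the wild-type (-0.02). For spn1 it was 903 in SD5 and 1044 in the wild-type (-0.01). That of spn2 was 2802 in SD5 and 3190 in the wild-type (0.02).

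The genes spn5, spn6 and spn7 encode septins used with Spn2 around the forming spores in meiosis, whereas these cells were labelled as growing exponentially. The signal of spn6 was below background in both arrays, at 17.8 in SD5 and 11.6 in the wild-type, so it has no ratio and is the only gene of the 38 without one. The signal of spn5 was 131 in SD5 and 136 in the wild-type (0.14), and here the robust SD of 0.24 exceeded the ratio. The signal of spn7 was 576 in SD5 and 712 in the wild-type (-0.10, robust SD 0.12). Both spn5 and spn7 were above background in exponential growth, as were 97.0% of S. pombe probe sets in SD5 and 98.7% in the wild-type. The signal of spn5 was 4.91 times background in SD5 and 7.69 times in the wild-type. Over the 6 septins with a ratio the median was -0.01.

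The genes of ring position and mitotic nodes were all slightly below 0, with a median of -0.06 over 4 genes. The farthest of them from genes of like signal, mid1, lay 0.94 robust SDs below their median. The sign was not fixed for cdr2, which had 0.031 after quantile normalization and 0.016 with background as a pseudocount. The gene mid1, whose anillin-like product leaves the nucleus to set the division plane, had 821 in SD5 and 1033 in the wild-type (-0.13, robust SD 0.11). Its paralog mid2, which acts later with the septin ring, had 1621 in SD5 and 1889 in the wild-type (-0.02). The difference between the pair, mid1 minus mid2, was -0.11, less than their combined robust SD of 0.14. The node kinases Cdr1 and Cdr2, which restrain the mitotic inhibitor Wee1, were close to each other, with a difference of -0.05 (cdr1 minus cdr2) inside their combined robust SD of 0.20. The signal of cdr1 was 846 in SD5 and 1036 in the wild-type (-0.09), and that of cdr2 was 199 in SD5 and 236 in the wild-type (-0.04).

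Among the 8 contractile ring genes myo2 stood out. The gene myo2 (SPOM_SPCC645.05C), which encodes the essential myosin II heavy chain, had 494 in SD5 and 460 in the wild-type. After centring this was 1.24-fold higher in SD5, a log2 ratio of 0.30 with a robust SD of 0.13, or 2.57 robust SDs above genes of like signal. The light chains that bind this heavy chain did not share the ratio. The essential light chain gene cdc4 had 6954 in SD5 and 8006 in the wild-type (0.00). Relative to genes of like signal, this bright gene lay 1.35 robust SDs below the median. Its ratio was -0.058 after loess and -0.069 after quantile normalization. The regulatory light chain gene rlc1 had 874 in SD5 and 1016 in the wild-type (-0.01). The ratio of myo2 exceeded that of cdc4 by 0.30 and that of rlc1 by 0.32, more than the combined robust SDs of 0.14 and 0.17. The heavy chain of the other ring myosin II, myp2, had 213 in SD5 and 232 in the wild-type (0.08). Here myo2 exceeded myp2 by 0.22, slightly more than their combined robust SD of 0.21. After quantile normalization the difference was 0.17, less than that spread, so this comparison too depended on the processing.

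The formin gene cdc12, whose product nucleates the ring's actin filaments, came next to myo2, with 324 in SD5 and 328 in the wild-type (0.18, robust SD 0.15). The F-BAR genes, whose proteins tie the ring to the membrane, had nearly equal ratios. The signal of cdc15 was 624 in SD5 and 761 in the wild-type (-0.08), and that of its paralog imp2 was 552 in SD5 and 669 in the wild-type (-0.07). The IQGAP gene rng2, the ring scaffold that holds myosin to actin at the nodes, was the lowest of the ring genes, with 524 in SD5 and 658 in the wild-type (-0.13, robust SD 0.14). The median of the 8 was -0.01.

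Actin and its binding proteins gave bright signals, and 4 of the 6 had ratios between 0.07 and 0.10. The actin gene act1 had 6856 in SD5 and 7539 in the wild-type (0.07). The gene of tropomyosin, cdc8, whose product coats the ring's filaments, had 7578 in SD5 and 8301 in the wild-type (0.07). Cofilin and profilin turn over and supply actin. The cofilin gene adf1 had 8829 in SD5 and 9612 in the wild-type (0.08), and the profilin gene cdc3 had 4668 in SD5 and 5015 in the wild-type (0.10). The group's median of 0.07 depended on the normalization: it was 0.0099 once a loess fit had taken out the dependence on signal, and it turned to -0.013 after quantile normalization and -0.13 without centring. Relative to genes of like signal, act1, cdc8 and adf1 lay 0.15, 0.22 and 0.29 robust SDs above the median. The profilin gene cdc3 lay farther above it, at 1.42 robust SDs, and its ratio was still 0.07 after loess and 0.06 after quantile normalization.

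The array also carries control probe sets at the 3′ part, the middle and the 5′ part of the actin mRNA. The 3′ control had 6377 in SD5 and 7219 in the wild-type (0.02), and the middle control had 5242 in SD5 and 5876 in the wild-type (0.04). The 5′ control had 2731 in SD5 and 3317 in the wild-type (-0.08). The 4 probe sets of this transcript therefore ranged from -0.08 to 0.07, and their mean was 0.01. The ratio of 3′ to 5′ signal, which depends on how complete the labelled RNA was, was 2.33 in SD5 and 2.18 in the wild-type. The part of that difference in the ratios of other genes was not tested.

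The actin crosslinkers differed from each other. The alpha-actinin gene ain1 (SPOM_SPAC15A10.08) had 1391 in SD5 and 1897 in the wild-type, 1.18-fold lower in SD5 (-0.24, robust SD 0.088). Of the 37 genes it lay farthest from genes of like signal, 2.73 robust SDs below them. The fimbrin gene fim1, whose product bundles actin in patches and also in the ring, had 4037 in SD5 and 4663 in the wild-type (0.00).

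**Figure D2:**
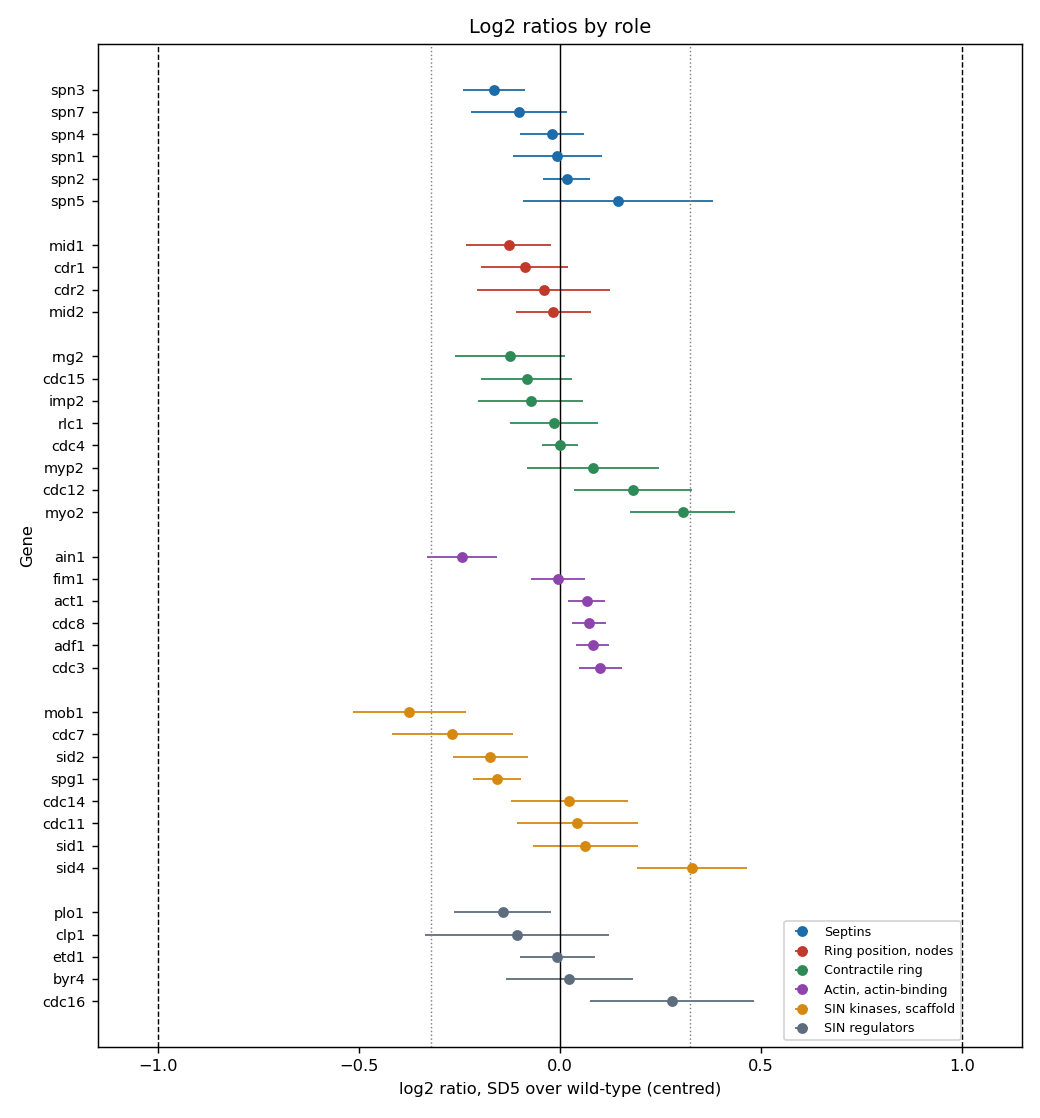
Log2 ratio of SD5 over wild-type for each of the 37 genes with a ratio, grouped by role, with bars of 1 robust SD of probe sets of like signal, dotted lines at 0.32 in either direction and dashed lines at 2-fold. All points lie between -0.38 (mob1) and 0.33 (sid4), far inside the 2-fold lines.

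The core of the septation initiation network held both the lowest and the highest ratio of the 37 genes. Within the cascade, the GTPase Spg1 binds the kinase Cdc7, the kinase Sid1 acts with Cdc14, and the kinase Sid2 acts last with its activator Mob1. The gene mob1 (SPOM_SPBC428.13C) had 213 in SD5 and 318 in the wild-type, 1.30-fold lower in SD5 (-0.38, robust SD 0.14). Its kinase partner sid2 had 1097 in SD5 and 1424 in the wild-type (-0.17, robust SD 0.092). Both subunits of this complex were below 0, and sid2 exceeded mob1 by 0.20, more than the combined robust SD of 0.17. With background as a pseudocount the difference was 0.13, less than that spread, so this comparison depended on the processing.

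The GTPase gene spg1 (SPOM_SPAC1565.06C) had 2686 in SD5 and 3446 in the wild-type (-0.16, robust SD 0.060), 2.60 robust SDs below genes of like signal. The kinase gene cdc7 had 283 in SD5 and 392 in the wild-type (-0.27, robust SD 0.15). The remaining kinase complex was near 0 in both of its subunits. The signal of sid1 was 382 in SD5 and 421 in the wild-type (0.06), and that of cdc14, which in this species encodes the Sid1 partner and not a phosphatase, was 341 in SD5 and 387 in the wild-type (0.02).

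The scaffold proteins Sid4 and Cdc11 anchor the cascade at the spindle pole body. The gene sid4 (SPOM_SPBC244.01C) had 444 in SD5 and 407 in the wild-type, the highest ratio of all (0.33, robust SD 0.14). Its partner cdc11 had 352 in SD5 and 393 in the wild-type (0.04, robust SD 0.15). The scaffold genes thus differed from each other by 0.28, more than their combined robust SD of 0.20. Over the 8 core genes 4 ratios were above 0 and 4 below, with a median of -0.07.

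Of the regulators of the network, the inhibitor gene cdc16 had the highest ratio. Cdc16 and Byr4 form the GTPase-activating complex that switches Spg1 off. The signal of cdc16 was 148 in SD5 and 140 in the wild-type (0.28, robust SD 0.20), and that of byr4 was 213 in SD5 and 242 in the wild-type (0.02). Their difference of -0.26, byr4 minus cdc16, was about as large as their combined robust SD of 0.26. The polo kinase gene plo1, an upstream activator, had 551 in SD5 and 700 in the wild-type (-0.14, robust SD 0.12). The gene etd1, whose product activates Spg1, had 1156 in SD5 and 1337 in the wild-type (-0.01). The phosphatase gene clp1, which keeps the network active while the ring is being built, had 116 in SD5 and 143 in the wild-type (-0.11). At this dim signal the robust SD was 0.23, so a ratio of that size was within the spread of its neighbours in brightness. The median of the 5 regulators was -0.01.

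Across all roles, 6 of the 37 genes (16.2%) lay at least 2 robust SDs from the median of genes of like signal, against 7.50% of all named genes. These were ain1, spg1, mob1 and spn3 on the low side, or 10.8% against 3.73% of all named genes, and myo2 and sid4 on the high side, or 5.41% against 3.77%. The measure was chosen after the ratios had been seen, and with no replicate array the distance of a single gene from its neighbours in brightness has no error. The same 6 genes met it in each of 9 alternative treatments of the data, but several of these could hardly have changed the outcome. A different centring shifts a gene and its neighbours in brightness alike, so it cancels in this measure. Taking the brightest probe set of each gene left the ratios of the 6 genes as they were. Other background percentiles left them almost unchanged, and so did leaving out the filter on dim probe sets. A loess fit depends on mean signal alone, so it too largely cancels against neighbours of like signal. Under those settings the repeat is therefore no separate check. The median size of a ratio regardless of sign was 0.083 in the 37 genes and 0.066 in all named genes.

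**Figure D3:**
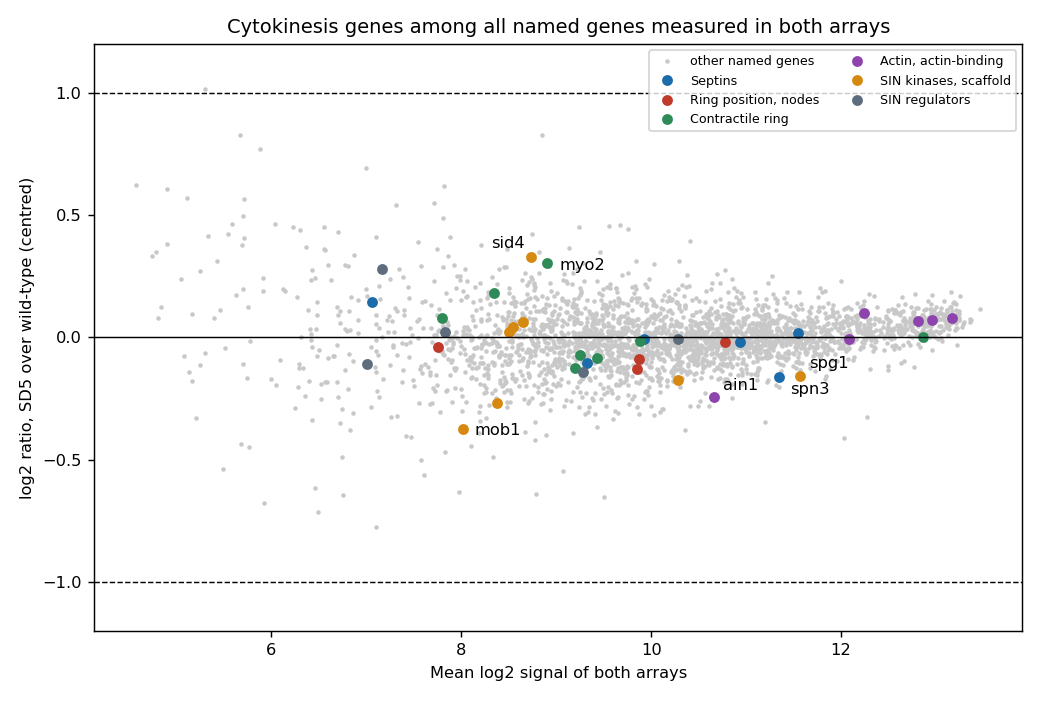
Log2 ratio of SD5 over wild-type against mean log2 signal, for the 37 genes by role and for all other named genes measured in both arrays in grey, with dashed lines at 2-fold. The spread narrows as signal grows, and the 6 genes at least 2 robust SDs from genes of like signal are labelled.

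None of the 38 genes is among the outermost genes of a chromosome. By order among protein-coding genes, 25 are on chromosome I, 9 on II and 4 on III. The share of all genes that lie within 100 genes of an end was not counted. Of the 38 genes, 4 do, and sid4 is the nearest, 57th from the right end of chromosome II. The others are spn3, 82nd from that same end, sid2, 88th from the left end of I, and cdc4, 92nd from the right end of I. Their ratios were 0.33, -0.16, -0.17 and 0.00, with a median of -0.08, against -0.01 for the 33 genes farther in.

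The flanking genes of the 6 genes named above had ratios of both signs, except those of sid4. Each window held 10 protein-coding genes, 5 on either side, but only those named on the array and with a ratio are described. Beside myo2, 9 of the 10 had a ratio, with a median of -0.12 and the highest at 0.07. Next to it on chromosome III is rgf3, with a ratio of 0.07. Beside mob1, 5 genes had a median of -0.03, but clr4, the histone H3 lysine methyltransferase gene 5 genes away, had -0.56. All 5 flanking genes of sid4 with a ratio were above 0, from 0.06 to 0.17. The 5 flanking genes of ain1 with a ratio, of 10 in its window, ran from -0.13 to 0.31, with a median of 0.03. The 5 beside spn3 ran from -0.16 to 0.24 (median 0.02), and ppr7, 2 genes away, had the same -0.16 as spn3. The 4 beside spg1 ran from -0.17 to 0.16 (median 0.00), and the lowest, fsv1, was as low as spg1 itself.

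Genes that work with the ring, the septum and the network were described from 7 further lists, in which no gene was as far as 0.32 from 0 in either direction. Of all named genes, 1.68% were that far in each direction. The lists hold 82 genes, of which 70 had a ratio, with a median of -0.03, 25 above 0 and 45 below. Above 0 were thus 35.7% of the 70, against 50.4% of all named genes. The outermost were adg2 (917 in SD5 and 1304 in the wild-type, -0.31), of the cell separation list, and art1 (211 in SD5 and 207 in the wild-type, 0.23), of the ring partner list. Of the 70, adg2 alone lay at least 2 robust SDs from genes of like signal, against 7.50% of all named genes.

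Among the node partners, 6 genes had a median of 0.01. The gene gef2 was lowest (661 in SD5 and 891 in the wild-type, -0.23), followed by the node scaffold gene blt1 (-0.10), and the kinesin-like gene klp8 was highest (473 in SD5 and 487 in the wild-type, 0.16), followed by the polarity kinase gene pom1 (0.07). The ring partner list had a median of -0.02 over 10 genes. Below art1 its highest member was the myosin V gene myo51 (0.11), and its lowest were gef3 (-0.12), encoding a septin-bound exchange factor, and rho4 (-0.11). Actin patch and cable genes had a median of -0.02 over 16 genes, from the WASP gene wsp1 (-0.20) and the Arp2/3 complex gene arp2 (-0.12) up to the vrp1 gene of verprolin (0.07) and the Arp2/3 complex gene arc1 (0.07).

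The list of septation network partners and related kinases had a median of -0.02 over 13 genes. Its lowest was ppc89 (398 in SD5 and 510 in the wild-type, -0.15), which encodes the spindle pole body protein that binds Sid4. The ratio of ppc89 thus had the opposite sign to that of sid4. Next was mob2 (-0.10), of the related Orb6 kinase complex, and the highest were par1 (0.09), a regulatory subunit of protein phosphatase 2A, and dnt1 (0.05). Septum synthesis genes had a median of -0.02 over 13 genes. The lowest were cwg2 (-0.20) and rgf2 (-0.17), and the highest were rgf3 (0.07) and rho1 (0.02). The glucan synthase genes on the list had -0.02 for bgs1, 0.01 for bgs3, -0.01 for bgs4 and -0.08 for the alpha-glucan synthase gene ags1, listed under its synonym mok1.

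Cell separation genes had a median of -0.06 over 8 genes. Below 0 were adg2 and, next, adg3 (-0.09), while the glucanase gene eng1, which cuts the primary septum, had -0.06. The highest were rgf3, which is also on this list, and the MADS-box factor gene mbx1 (0.05). The forkhead factor genes sep1 (-0.06) and fkh2 (-0.08) were near the median. Exocyst genes, for the complex that tethers vesicles at the division site, had a median of -0.08 over 5 genes. They ran from sec10 (-0.11) and exo70 (-0.10) to sec6 (-0.06) and sec8 (0.01).

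**Figure D4:**
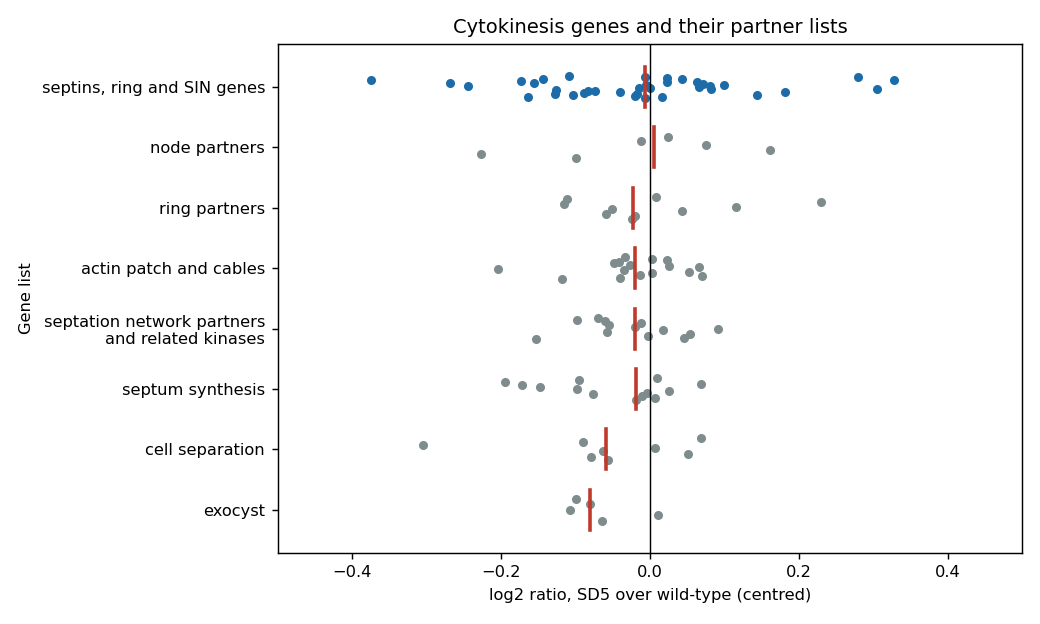
Log2 ratio of SD5 over wild-type for the 37 septin, ring and septation initiation network (SIN) genes and for the genes of 7 partner lists, with a red bar at each median. Medians run from -0.08 in the exocyst to 0.01 in the node partners. Outside the range of the partner genes lie mob1 at -0.38, sid4 at 0.33, myo2 at 0.30 and cdc16 at 0.28.

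The ratios of the 6 genes farthest from their neighbours in brightness kept their sign under the 9 alternatives. That of mob1 ran from -0.58 without centring to -0.30 with background as a pseudocount, and that of sid4 from 0.12 without centring to 0.36 after quantile normalization. For myo2 the range was 0.10 to 0.33, for ain1 -0.45 to -0.24, for spn3 -0.37 to -0.16 and for spg1 -0.36 to -0.16. Uncentred ratios carry the shift of -0.20 common to the arrays.

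**Figure D5:**
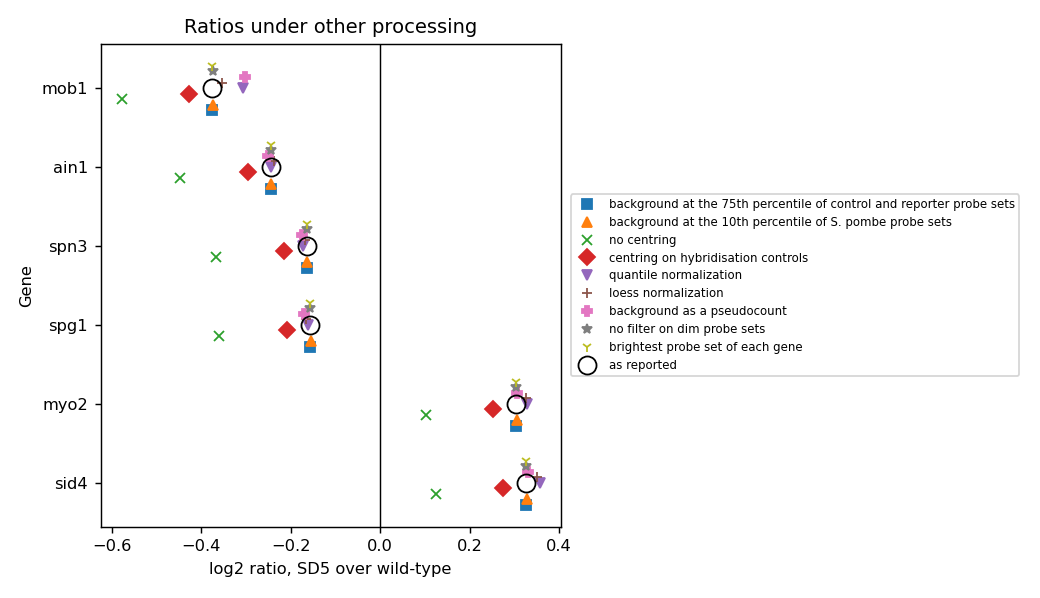
Log2 ratio of SD5 over wild-type of the 6 genes at least 2 robust SDs from genes of like signal, as reported (open circles) and under each of 9 alternatives. Every point of mob1, ain1, spn3 and spg1 lies below 0 and every point of myo2 and sid4 above it, and the uncentred values (crosses) lie farthest to the left.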

How the data were processed

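Total RNA was extracted with Trizol, polyadenylated RNA was purified, and biotinylated cRNA was hybridised, per the labels' protocols. The authors deposited intensity values on a linear scale for each probe set; GCOS 1.4 is named per the submitters' processing notes, with no role given. Of 10928 rows, 5748 were 0 in both arrays and were left out, and 4999 S. pombe probe sets remained. Gene names came from the platform's probe table, matched to the reference annotation ASM294v3 (2914 probe sets, 2896 genes). The replication kinase gene hsk1, which has cdc7 as a synonym, was left out.

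Background was the 95th percentile of 32 control and 47 reporter probe sets. Signals under it were set to it before log2, and a probe set below it in both arrays gave no ratio. With 1 array per strain, no test was made, and the number of arrays limits precision. The calculation was tested on simulated arrays. The planted changes were larger than any ratio of the members and sat in probe sets brighter than the dimmest members. Changes of the size reported here were not simulated. All members with a ratio were named, and of each partner list the 2 lowest and 2 highest, with others as examples. Of these, bgs1, bgs3, bgs4, ags1, eng1, sep1 and fkh2, the flanking genes and the pairs of complex partners were named after their values were seen. Members and lists were chosen with earlier results of these data known. Promoter and protein sequences were not used here. Calculations used Python 3.11.15, numpy 2.4.6, pandas 2.3.3 and statsmodels 0.14.6.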

Additional observations from a re-analysis of the deposited data

How the results depend on the processing

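No paired analysis was possible because each strain has 1 array. No member was 2-fold lower or higher under any of the 9 alternatives that gave it a ratio. Members at least 0.32 lower on the log2 scale numbered 1 as reported. They numbered 9 without centring, 0 after quantile normalization and 0 with background as a pseudocount. Of all named genes, 14.4%, 1.08% and 1.11% were that much lower at these settings, in that order, against 1.68% as reported. Members at least 0.32 higher numbered 1 as reported, 3 after quantile normalization, and 0 without centring and with centring on hybridisation controls. They numbered 2 with background at the 75th percentile of control probe sets, after loess normalization, with background as a pseudocount and without the filter on dim probe sets. Of all named genes, the share that much higher was 1.68% as reported. It was 3.18% after quantile normalization, 0.418% without centring and 1.22% with centring on hybridisation controls. At the settings with 2 members it ran from 1.64% after loess normalization to 2.50% with background as a pseudocount. Without centring, the medians were -0.21 for the members, -0.22 for septins, -0.27 for ring position and node genes and -0.21 for contractile ring genes. They were -0.13 for actin genes, -0.27 for the core of the septation initiation network and -0.21 for its regulators. This shift follows from leaving in the -0.20 that centring removes. The median of actin genes was 0.017 with centring on hybridisation controls, -0.013 after quantile normalization and 0.0099 after loess normalization; the other group medians moved by less than the robust SD under these settings. Hybridisation controls put the median of all named genes at -0.052. Without the filter, spn6 joined the 6 members at least 2 robust SDs from genes of like signal, for a count of 7, with a log2 ratio of 0.79. With background at the 75th percentile it had 0.83; both of its signals were below the background used in the report. Where the 10th percentile of the S. pombe signals served as background, spn5, cdc16 and clp1 gave no ratio. Averaging act1 with its control probe sets, an alternative chosen after seeing the data, gave 0.01 in place of 0.07.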
